A study of Mus musculus with 22 samples.

Results

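The collagen, laminin and ADAMTS genes of the developing mouse retina were examined for H3K27me3, a histone mark that Polycomb repressive complex 2 places on chromatin. Members were all autosomal genes with a peak assigned in the deposited annotation whose symbol begins as a collagen chain, a laminin chain or an ADAMTS family gene, which gave 55 of 12370 genes and 82 of 19034 peaks. Beyond the presence of an assigned peak, only the name chose them, and no difference between genotypes was used. The mark was mapped by CUT&RUN, in which an antibody brings a nuclease to marked chromatin and the DNA it frees is sequenced. Retinas were taken at embryonic day 18.5 from C57BL/6 mice, the 2 retinas of an animal forming a sample. The 5 Jarid2 conditional knockout animals (cKO) had the genotype Jarid2 fl/fl; Rx-cre. The 5 controls were Jarid2 fl/+ in replicates 2, 4 and 5, Jarid2 fl/fl in replicate 3, and Jarid2 fl/+; Rx-cre in replicate 1. The protocol text instead gives the controls as Jarid2 fl/fl, and the labels of the samples were used. Tamoxifen at 75 µg per g had been given to the dams of all groups at E10.5, and the protocol names the driver as Rax-CreERT2, an inducible Cre under a gene of retinal progenitors. Cells that do not descend from Rax-expressing progenitors, such as those of vessels, would keep Jarid2. Batch 1 held 2 cKO and 2 control animals, with 1 male and 1 female in each group, and batch 2 held 3 male littermates of each group.

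Jarid2 is an accessory subunit that helps bring Polycomb repressive complex 2 to chromatin, and a gene covered by H3K27me3 is as a rule silent. Collagens are trimers that build fibrils, networks and basement membranes, laminins are trimers of an alpha, a beta and a gamma chain that start basement membranes, and ADAMTS proteases trim procollagens and cut proteoglycans such as aggrecan and versican. In the eye these proteins form the inner limiting membrane, the vessel walls, the vitreous, the lens capsule and Bruch's membrane, and many are made by cells other than retinal neurons.

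Animals held 1688368 to 2864080 reads in peaks, and the 82 member peaks took 0.459% to 0.491% of them in each animal. The labelled tissue was checked on the marks of regulators, where a marked gene is read as silent. The retinal regulators Rax, Six3, Six6, Sox2 and Crx carried no peak. Lists of other lineages were mixed too. Of 4 lens genes 1 had a peak, Foxe3, with means of 1218 CPM in cKO and 1230 CPM in control retinas. Of 4 muscle genes 3 had one, among them Pax3 of muscle and neural crest with 2602 and 2868 CPM. Of 4 liver genes 2 had one, Foxa2 with 1585 and 1654 CPM and Hnf4a with 20.43 and 15.81 CPM. Cryaa, Cryba1, Mip, Myf5, Alb and Afp had none. The presence of a peak therefore did not part the retinal list from these lists. CPM is the read count scaled to library size and corrected by TMM factors. Of the markers of cells that could be mixed in, 4 of 8 for endothelium, 6 of 8 for pericytes and mesenchyme and 2 of 6 for microglia and blood had a peak. Pecam1, Cdh5, Tek and Tie1, Pdgfrb and Acta2, and Csf1r, Ptprc, Gata1 and Hbb-bs had none. The summed signal of 7 of the 8 marker lists overlapped between the groups. The pigment epithelium list, which is Dct alone since Tyr, Tyrp1, Rpe65 and Mlana had no peak, held 649.7 to 715 CPM in cKO and 722 to 798.5 CPM in control retinas. Dct did not reach an adjusted p under 0.05 in edgeR, and all cKO animals lay below all controls at 2.03% of all tested genes. The part of other cell types in the results was not tested.

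Control replicate 1, the control with Cre, lay nearer to the cKO animals than control replicate 2, the other control of its batch, at genes lower in cKO. At the 707 genes lower in cKO in batch 2 alone, this animal lay 0.309 above the batch 1 cKO mean on the log2 scale (median over genes), against 0.782 for control replicate 2. It lay nearer to the cKO mean than to control replicate 2 at 450 of the 707 genes (63.6%), against 52.4% of all genes and 53% of the 134 genes higher in cKO in batch 2 alone. At the matrix genes it did so at 20 of 53 (37.7%), with median differences from the cKO mean of 0.0885 for control replicate 1 and 0.114 for control replicate 2. Control replicate 1 was male and control replicate 2 female. Cre, the heterozygous deletion, sex and the variation of single animals therefore cannot be told apart in this comparison. Results are also given without control replicate 1 where that changes them. Such fits leave control replicate 2, a female, as the control of batch 1.

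The start sites of 33 of the 55 members could be matched to RefSeq promoters of GRCm38.p6, the assembly of the mm10 build, each running from 250 bases before to 50 after the start. With the family genes that had no assigned peak, 56 windows of 52 genes were read. The windows printed are those of the 3 matched members with the smallest p for the summed signal, whose starts were all marked (Adamts18, Lamb1, Col24a1). Beside them stand 2 starts that lay in no peak, that of Col4a1, which is rich in the dinucleotide CG, and that of Col28a1, which has none. They are written 5′ to 3′ on the strand of the gene, with CG, which reads the same on both strands, in capitals.
Adamts18 promoter, chr8:113848790-113849089, minus strand: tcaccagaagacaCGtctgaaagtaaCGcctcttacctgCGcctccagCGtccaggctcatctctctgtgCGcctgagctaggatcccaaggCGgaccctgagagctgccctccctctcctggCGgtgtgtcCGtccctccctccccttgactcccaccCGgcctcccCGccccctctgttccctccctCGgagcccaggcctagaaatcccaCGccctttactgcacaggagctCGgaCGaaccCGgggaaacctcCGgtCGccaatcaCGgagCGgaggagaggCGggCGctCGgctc
Lamb1 promoter, chr12:31265043-31265342, plus strand: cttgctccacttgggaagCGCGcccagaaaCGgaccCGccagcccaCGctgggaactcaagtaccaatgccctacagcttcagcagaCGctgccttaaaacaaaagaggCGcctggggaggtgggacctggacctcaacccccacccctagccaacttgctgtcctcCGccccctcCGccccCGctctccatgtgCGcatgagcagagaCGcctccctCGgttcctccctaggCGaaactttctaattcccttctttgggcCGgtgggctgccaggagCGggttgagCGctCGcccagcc
Col24a1 promoter, chr3:145292222-145292521, plus strand: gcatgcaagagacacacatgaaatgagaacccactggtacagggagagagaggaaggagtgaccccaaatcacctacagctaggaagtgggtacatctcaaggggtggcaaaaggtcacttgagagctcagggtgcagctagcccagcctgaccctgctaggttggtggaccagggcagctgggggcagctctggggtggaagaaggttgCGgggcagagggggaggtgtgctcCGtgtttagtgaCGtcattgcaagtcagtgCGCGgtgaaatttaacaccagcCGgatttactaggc
Col4a1 promoter, chr8:11312777-11313076, minus strand: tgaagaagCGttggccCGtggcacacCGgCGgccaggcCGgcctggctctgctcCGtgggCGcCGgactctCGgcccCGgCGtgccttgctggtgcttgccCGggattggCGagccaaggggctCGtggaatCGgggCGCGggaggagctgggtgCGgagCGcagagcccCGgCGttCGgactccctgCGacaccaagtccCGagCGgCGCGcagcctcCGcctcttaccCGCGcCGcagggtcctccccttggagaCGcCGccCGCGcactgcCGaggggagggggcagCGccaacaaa
Col28a1 promoter, chr6:8192568-8192867, minus strand: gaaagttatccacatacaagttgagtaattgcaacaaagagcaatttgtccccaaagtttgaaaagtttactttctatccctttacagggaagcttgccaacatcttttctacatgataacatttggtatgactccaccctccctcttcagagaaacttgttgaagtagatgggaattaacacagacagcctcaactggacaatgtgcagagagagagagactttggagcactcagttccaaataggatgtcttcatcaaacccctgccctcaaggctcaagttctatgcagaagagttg

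The windows of Adamts18, Lamb1 and Col24a1 held 22, 18 and 6 CG, that of Col4a1 37 and that of Col28a1 0. Among family windows that overlapped a peak, 27 in all, the median was 18 CG and 88.9% held at least 10. Among the 29 that overlapped no peak the median was 6 and 34.5% held at least 10. Over all 31396 autosomal windows the same values were 13 CG and 61.5% in a peak and 6 CG and 40.9% in no peak, and 44.0% of all windows held at least 10 and 94.8% at least 1. The Col4a1 window shares bases with that of Col4a2 on the opposite strand, chr8:11312555-11312854, which held 33 CG. Peaks and CG number are given here as a description of the windows.

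Most H3K27me3 peaks of matrix genes were annotated at a start site. An annotated start need not be the RefSeq start, and 1 promoter peak of Adamts20 lay 28626 bp outside the RefSeq gene. Of the 82 member peaks, 58 (70.7%) were annotated as promoter, against 49.4% of the 18299 other autosomal peaks, and 48 (58.5%) covered the start site itself, against 27.6%. Another 6 lay in introns, 4 in exons, 2 in 3′ UTRs and 1 in a 5′ UTR, and 11 (13.4%) were intergenic, against 32% of the other peaks. These shares were not tested, since peaks of 1 gene are not independent. The median width was 3326 bp, against 2811 bp for the other peaks, and the widest was the 16301 bp peak over the start of Lamc3, a laminin gamma chain found in the retina. In 34 genes there was 1 peak, in 15 there were 2 and in 6 there were 3. Against RefSeq gene bodies, 67 member peaks overlapped their gene and 15 lay 272 to 41830 bp outside it. The peak assigned to Adamtsl2 lay 1289 bp outside that gene and over Fam163b, and the peak assigned to Col4a4 also covered the start of Col4a3, which faces it.

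RefSeq lists 77 autosomal genes that match the name pattern, and 22 of them had no assigned peak. Among these were Col4a1 and Col4a2, the type IV chains found in nearly all basement membranes, Col18a1, the laminin chains Lama1 and Lamb2, the fibrillar chains Col3a1, Col5a1 and Col11a1, the type VI chains Col6a1 and Col6a2, and the proteases Adamts1, Adamts4, Adamts7 and Adamts12. Of the 22, Adamts4, Adamtsl5 and Col5a1 were overlapped by a peak assigned to another gene, and the other 19 by none.

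Where the mark was present, its density differed widely between the genes and little between the genotypes. Per kb of peak, the mean over the 10 animals ran from 2.75 CPM at Col4a3 to 33.5 CPM at Col15a1, a 12.2-fold range. Col4a3 is a chain of kidney basement membrane and Col15a1 a collagen of vessel and muscle basement membranes. The peak assigned to Col4a3, chr1:82709660-82713970, lay within the gene but away from its RefSeq start. That start lay in the peak assigned to Col4a4, which held 7.27 CPM per kb. Among the genes next to Col15a1 were Col19a1, a minor collagen that binds to fibrils (31.4 CPM per kb), Adamts9, a protease that cuts versican (28.2), Lamb1, the common beta 1 chain (28.0), and Col7a1, the collagen of anchoring fibrils in skin (24.8). Col15a1 averaged 243 ± 12.8 CPM in cKO and 254 ± 20.7 CPM in control retinas (SD, n = 5 each), and the others named here likewise had groups that overlapped. In each large class marked genes stood beside thinly marked ones, such as Col27a1 of cartilage (22.9 CPM per kb) beside Col2a1 of cartilage and vitreous (4.36), or Lamb1 beside Lama2 of muscle (3.78). By summed signal, not divided by length, members had a median of 42 CPM, against 30.3 CPM over all tested genes, from 3.28 CPM at Lama3 to 375.2 CPM at Col8a2, a collagen of the cornea.

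**Figure D1:**
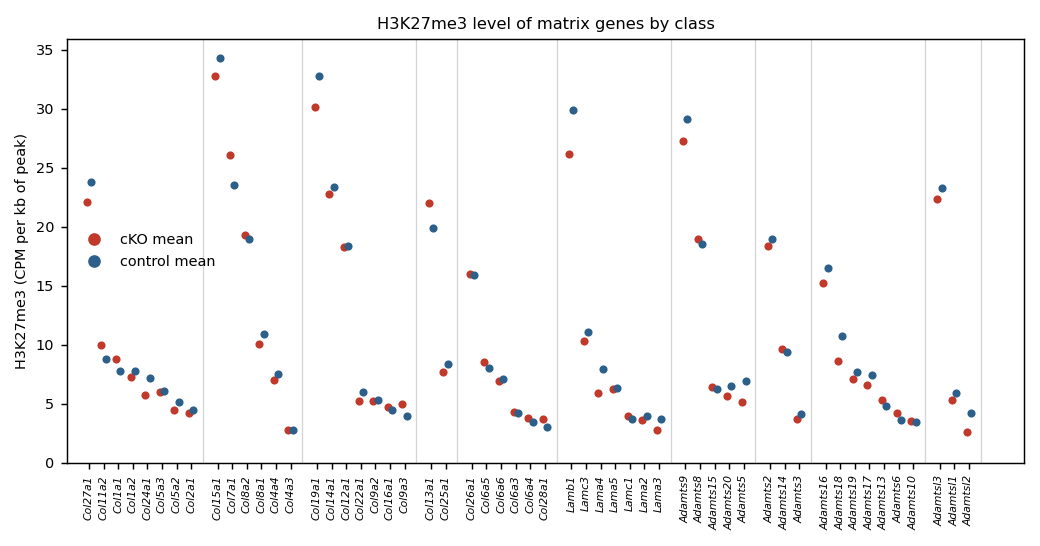
Mean H3K27me3 in CPM per kb of peak for 54 of the 55 matrix genes, cKO left and control right of each gene. Vertical lines part the classes, from left to right fibrillar, basement membrane and network, FACIT, transmembrane, beaded filament and other collagens, laminin chains, proteoglycan-cleaving ADAMTS, procollagen N-proteinases, other ADAMTS and ADAMTS-like genes. Levels run from 2.75 at the peak assigned to Col4a3 to 33.5 at Col15a1, and the means of the 2 genotypes lie close together at most genes.

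The main comparison asked whether H3K27me3 at these genes depended on Jarid2. Summed over its peaks, Adamts5, an aggrecanase, was lower in cKO retinas, and it was the 1 gene of 54 tested to pass, with 0 higher (edgeR quasi-likelihood test with batch as a term, adjusted p under 0.05 over all genes). The 1 call is 1.85% of the members, against 9.78% of all 11324 tested genes, where lower calls were 8.29% and higher calls 1.48%. With single peaks 1 of 71 was lower and 0 were higher (1.41%, against 8.84% of all 16307 tested peaks, 7.38% lower and 1.46% higher), and it lay in Adamts5 too. Lama3, an alpha chain of epidermal laminin, and 11 of the 82 peaks had too few reads to be tested. At an unadjusted p under 0.05, 7 genes were lower (13%, against 14.1% of all genes) and 3 were higher (5.56%, against 8.89%). Among single peaks 5 of 71 were lower and 5 higher at that level (7.04% each, against 13.2% and 8.32% of all peaks). With DESeq2, 0 genes were lower and 0 higher after adjustment, against 6.27% and 0.283% of all genes, and 3 were lower and 0 higher at an unadjusted p under 0.05, against 10.9% and 2.84%. In bulk retina, fewer marked cells and less mark per cell cannot be told apart.

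Differences of the other members were bounded rather tightly. The 95% interval of the fold change lay within 1.5-fold in either direction for 47 of 54 genes (87%, against 74.9% of all genes). It lay within 1.25-fold for 28 of 54, against 4009 of all 11324 tested genes. The median log2 fold change was -0.0458 and 34 of 54 were negative (63%), against 0.015 and 46.8% over all tested genes. Scaled by total counts instead of TMM these medians were 0.0133 and 0.0723, and 26 of 54 members were negative, so the sign of the median rests on the scaling. At 0 genes did all cKO animals lie below all controls or above them (2.03% and 1.77% of all genes). At 9 genes every cKO animal had less than its batch's control mean (16.7%, against 17.4% of all genes), and at 7 every one had more (13%, against 14.1%).

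**Figure D2:**
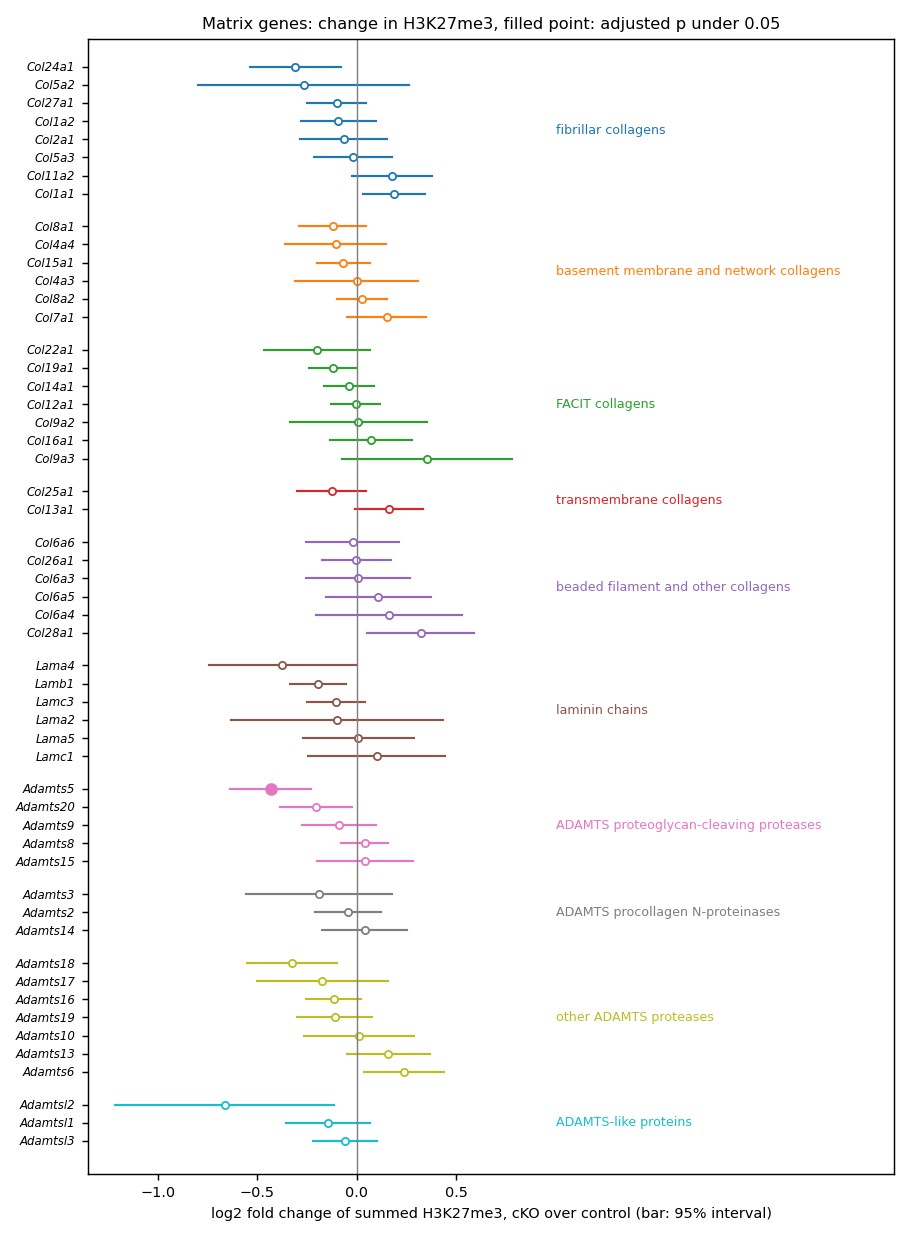
Log2 fold change of summed H3K27me3, cKO over control, for 53 of the 54 tested matrix genes, with the 95% interval as a bar and genes ordered by class. The filled point is Adamts5 at -0.43, the gene with an adjusted p under 0.05, and the intervals of 46 of the genes drawn lie within 1.5-fold of no change.

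Adamts5 had lower H3K27me3 in every cKO animal than the control mean of its batch. The sum of its 3 peaks was 17.1, 21.0, 29.9, 28.9 and 31.7 CPM in cKO replicates 1 to 5, against 26.8, 31.5, 38.3, 37.5 and 40.3 CPM in control replicates 1 to 5. The 2 cKO animals of batch 1 were the lowest, and the groups overlapped across the batches, since the batch 1 controls lay below the highest batch 2 cKO animal. Within each batch all cKO animals lay below all controls. The means were 25.7 ± 6.34 CPM in cKO and 34.9 ± 5.60 CPM in control retinas (SD, n = 5 each). This is a log2 fold change of -0.43 ± 0.097 (SE), or 1.35-fold lower, with an adjusted p of 0.00626 in edgeR.

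The gene lies on the minus strand of chromosome 16, and its 3 peaks (mm10) cover the start and the first of 7 introns. The intronic peak farthest from the start, at chr16:85891450-85892500, held 1.59, 3.48, 6.78, 6.19 and 6.53 CPM in cKO replicates 1 to 5, against 5.93 and 7.49 CPM in the batch 1 controls and 9.43 to 11.5 CPM in the batch 2 controls. It was the called peak, at -0.84 ± 0.20 on the log2 scale (SE, adjusted p = 0.00822 in edgeR). This call was lost with DESeq2 (adjusted p = 0.102), without the batch term (0.117), in batch 2 alone (0.102) and with the first technical duplicates alone (0.253). It rests on few reads, namely 3, 7, 17, 14 and 14 in the cKO animals and 12, 12, 32, 27 and 21 in the controls, 159 in all. Within each batch the cKO animals again lay below the controls.

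The other intronic peak, at chr16:85896510-85898000, had 4.23, 4.47, 9.57, 7.96 and 7.46 CPM in cKO and 6.42, 7.49, 9.69, 10.1 and 10.3 CPM in control replicates (log2 fold change -0.36 ± 0.17, edgeR adjusted p = 0.356). The promoter peak, at chr16:85901120-85903590, had 11.6, 13.4, 13.6, 14.6 and 17.3 CPM in cKO and 14.8, 16.2, 16.9, 16.7 and 19.8 CPM in control replicates (-0.25 ± 0.13, edgeR adjusted p = 0.355). At both, the cKO animals lay below the controls of batch 1, and in batch 2 they overlapped at the promoter but not in the intron. Set against the promoter within an animal, the intronic signal of Adamts5 had a log2 difference of -0.38 ± 0.14 (SE, limma adjusted p = 0.263), which did not pass. The call for the sum was lost with DESeq2 (adjusted p = 0.0609), without the batch term (0.158), in batch 2 alone (0.0813) and with the first technical duplicates alone (0.207). It was kept in each of the 10 fits that left out 1 animal, the one without control replicate 1 included.

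**Figure D3:**
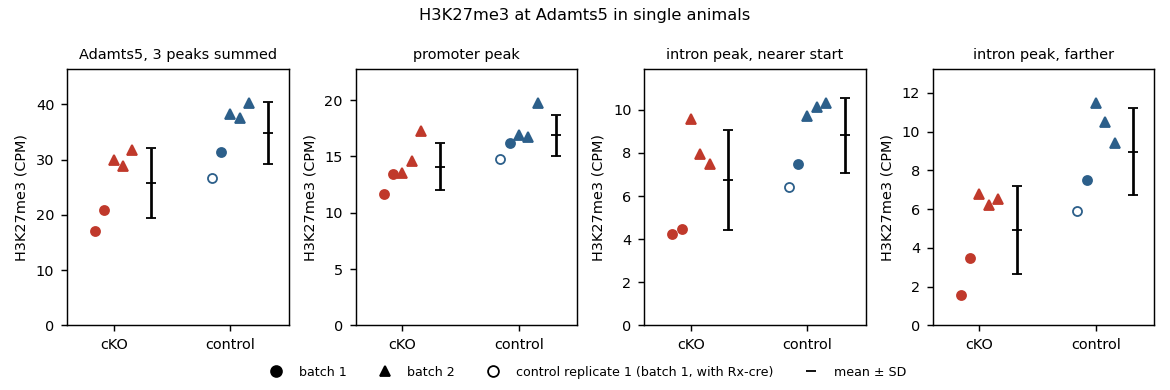
H3K27me3 at Adamts5 in CPM for each animal, summed over its 3 peaks and for each peak, cKO left and control right, with circles for batch 1, triangles for batch 2, an open circle for control replicate 1 and the mean with SD beside the points. The sum averaged 25.7 in cKO and 34.9 in control retinas, and the intronic peak farthest from the start differs most.

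Of the other proteoglycan-cleaving proteases, Adamts20, known from a mouse coat colour mutant, had -0.20 ± 0.087 as its log2 fold change (SE, adjusted p = 0.16 in edgeR). Adamts9 had -0.09 ± 0.089, and Adamts8 and Adamts15 had 0.04 ± 0.056 and 0.04 ± 0.11, with adjusted p from 0.607 to 0.871. Adamts9 was the densest of the class and had 204, 220.3, 269, 267 and 228 CPM in cKO replicates, against 275, 274, 279.5, 222 and 217 CPM in control replicates. Its cKO animals lay below both controls in batch 1 and among them in batch 2. The procollagen N-proteinases Adamts2, Adamts3 and Adamts14, which remove the amino-terminal propeptide of fibrillar collagens, had -0.05, -0.19 and 0.04, with adjusted p from 0.602 to 0.868.

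Adamts18, a protease whose loss in humans affects the cornea and retina, came closest to the threshold among the other members. It had 33.6, 43.9, 67.7, 68.5 and 70.0 CPM in cKO replicates, against 53.1, 70.5, 80.5, 79.3 and 69.6 CPM in control replicates. Both batch 1 cKO animals lay below both controls of that batch, and in batch 2 control replicate 5 lay within the cKO range. Its log2 fold change, -0.32 ± 0.11 (SE), had an adjusted p of 0.0662 in edgeR, and it passed without control replicate 5 (0.0358), with sex as a further term (0.0347) and with no filter on low counts (0.0445). In batch 2 alone it was -0.17 (edgeR adjusted p = 0.39), and it was -0.24 without cKO replicate 1 (0.135) and -0.23 without control replicate 2 (0.129). Its peak, chr8:113844050-113850620, covers the start, and its level was 50.2 CPM in batch 1 and 72.6 CPM in batch 2. Among the other 6 proteases of this class, Adamts6, known for a role in heart development in mice, had 29.98, 37.5, 31.1, 36.5 and 32.6 CPM in cKO replicates and 29.2, 30.2, 26.4, 28.5 and 28.4 CPM in control replicates, with 0.24 ± 0.096 as its log2 fold change (SE, adjusted p = 0.162 in edgeR). All of its cKO animals but replicate 1 lay above the highest control in that batch. Adamts13, which cuts von Willebrand factor, had 0.16 ± 0.099, Adamts16 -0.12 ± 0.066, and Adamts17 and Adamts10, proteases tied to fibrillin microfibrils, had -0.17 ± 0.16 and 0.01 ± 0.13.

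The ADAMTS-like proteins lack the protease domain. Adamtsl2, which binds fibrillin microfibrils, had 3.62, 5.36, 4.38, 3.11 and 5.67 CPM in cKO replicates, against 6.82, 8.81, 7.58, 3.52 and 9.16 CPM in control replicates. Control replicate 4 lay among the cKO animals and the other controls above them. The log2 fold change of -0.66 ± 0.26 was the most negative of all members (SE, edgeR adjusted p = 0.13), and it passed without control replicate 4 (0.0247). Since its peak lies over Fam163b, the value belongs to that site and not to the body of Adamtsl2. Adamtsl1 and Adamtsl3 had -0.15 ± 0.10 and -0.06 ± 0.077.

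Among laminin chains, 0 of 7 tested passed, with log2 fold changes from -0.373 to 0.101. Lamb1, the beta 1 chain found in most embryonic laminins, had 263, 218, 279, 248 and 242 CPM in cKO replicates, against 296, 290.1, 308, 270.0 and 267 CPM in control replicates. In each batch the group means were ordered alike, and cKO replicate 3 lay among the controls of batch 2. The difference on the log2 scale was -0.19 ± 0.067 (SE, adjusted p = 0.0796 by edgeR), and it passed without cKO replicate 3 (0.0411) and without control replicate 5 (0.0427). Without cKO replicate 2 it was -0.14 (edgeR adjusted p = 0.271), and in batch 2 alone -0.14 (0.378). Lama4, the alpha 4 chain of vessel walls, had 10.3, 10.7, 10.8, 11.6 and 8.98 CPM in cKO and 14.1, 20.1, 9.75, 10.6 and 16.03 CPM in control replicates (-0.37 ± 0.18, edgeR adjusted p = 0.215). Its highest controls were replicates 2 and 5, and the batch 2 groups overlapped. Lamc1, the gamma 1 chain of most laminins, Lama5 of the inner limiting membrane, and Lama2 and Lamc3 had log2 fold changes from -0.11 to 0.10. Lama3, untested, had 1.42 to 4.13 CPM in cKO and 3.15 to 4.87 CPM in control retinas.

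Of 8 fibrillar collagens 0 passed. Col24a1, a minor fibrillar collagen found with type I collagen, had 20.7, 21.0, 27.5, 28.0 and 26.96 CPM in cKO replicates, against 29.7, 32.1, 30.7, 35.6 and 26.6 CPM in control replicates. Control replicate 5 lay below the cKO animals of its batch, and every other control lay above those of its own. In edgeR the log2 fold change was -0.31 ± 0.11 (SE) with an adjusted p of 0.0871, and it passed without control replicate 5 (0.0311). It was -0.19 in batch 2 alone (edgeR adjusted p = 0.588), and with DESeq2 the adjusted p was 0.329. Col1a1, the main chain of type I collagen, leaned the other way, with 92.5, 102, 88.8, 95.1 and 88.0 CPM in cKO and 90.1, 85.6, 88.1, 69.6 and 77.0 CPM in control replicates. Its batch 1 cKO animals lay above both controls, and control replicate 3 lay among the cKO animals of batch 2. This gave a log2 fold change of 0.19 ± 0.074 (SE) with an edgeR adjusted p of 0.13, and it passed when scaled by total counts. Col1a2, the partner chain in the same trimer, had -0.09 ± 0.089. Col11a2 of cartilage had 0.18 ± 0.095, and Col27a1, Col2a1, Col5a3 and Col5a2 had -0.10, -0.07, -0.02 and -0.27.

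Basement membrane and network collagens, 6 in all, had log2 fold changes from -0.12 (Col8a1) to 0.151 (Col7a1), and all 6 intervals lay within 1.5-fold. Col7a1 had 72.3 to 81.4 CPM in cKO and 51.3 to 76.8 CPM in control retinas, so that most control values lay within or just below the cKO range and control replicate 5 lay apart. The 7 FACIT collagens, which sit on the surface of fibrils, ran from -0.199 (Col22a1) to 0.353 (Col9a3), with 0 calls. Col19a1 had 258 to 292 CPM in cKO and 268 to 309 CPM in control retinas (-0.12 ± 0.057, edgeR adjusted p = 0.22), and it passed without control replicate 5 (0.0427), while batch 2 alone gave -0.07 (0.739). The summed signals of Col12a1 and Col14a1, collagens that bind type I fibrils, had -0.01 ± 0.058 and -0.04 ± 0.059, with intervals within 1.25-fold.

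Of the transmembrane collagens, Col13a1, which acts at the neuromuscular junction, had 163, 184, 183, 187 and 172 CPM in cKO replicates, against 199.6, 174, 156, 140.3 and 132 CPM in control replicates. In batch 2 all cKO animals lay above all controls, and in batch 1 control replicate 1 was the highest. The edgeR fit gave 0.16 ± 0.082 on the log2 scale (SE, adjusted p = 0.25). Without control replicate 1 it was 0.24 (edgeR adjusted p = 0.0378), and in batch 2 alone 0.33 (0.00539). Col25a1, the other tested member of this class, had -0.13 ± 0.083. Among beaded filament and other collagens, Col28a1, known from peripheral nerve in mice, had 18.6, 16.6, 19.9, 20.01 and 16.1 CPM in cKO and 14.6, 15.7, 14.4, 12.5 and 16.5 CPM in control replicates (0.32 ± 0.13, edgeR adjusted p = 0.165). Only control replicate 5 overlapped the cKO range of its batch. Its 2 peaks lay within the gene, and the one in intron 11 of 34 had 0.57 ± 0.23 and the one in exon 7 had 0.19 ± 0.18. The type VI chains Col6a3, Col6a4, Col6a5 and Col6a6 had 0.01, 0.16, 0.11 and -0.02, and Col26a1 had 0.00 ± 0.083.

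**Figure D4:**
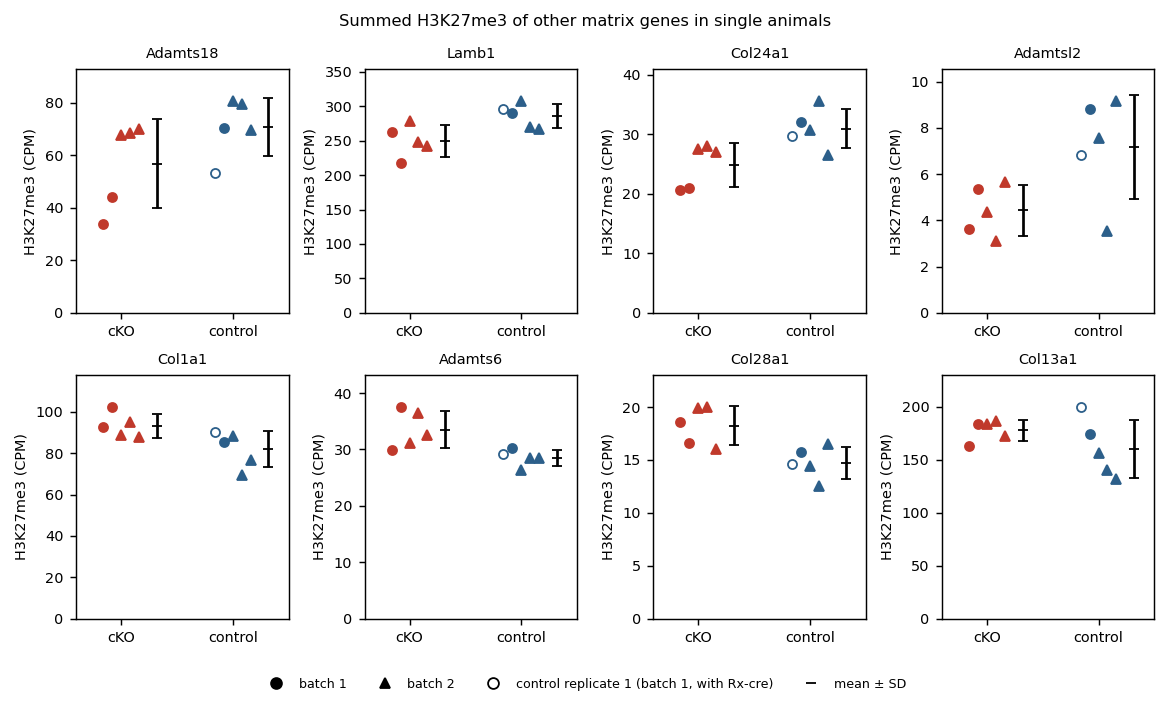
Summed H3K27me3 in CPM in each animal for 8 other matrix genes, cKO left and control right, marked as circles for batch 1, triangles for batch 2 and an open circle for control replicate 1, with mean and SD. Adamts18, Lamb1, Col24a1 and Adamtsl2 have lower cKO means and Col1a1, Adamts6, Col28a1 and Col13a1 higher ones, and at each gene the values of the groups overlap.

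The batches were compared for the genotype effect itself. Of 54 genes 0 passed the test of the batch by genotype term in edgeR (0.0177% of all genes did), and 4 had an unadjusted p under 0.05 (7.41%, against 4.45% of all genes). At Col13a1 the cKO and control retinas differed by -0.11 in batch 1 and by 0.34 in batch 2 on the log2 scale (edgeR adjusted p of the difference = 0.612), and Adamts9 had -0.37 in batch 1 and 0.09 in batch 2. Levels, as distinct from effects, differed between batches by more than 0.3 on the log2 scale at 8 of the 54 tested members, against 7 for the genotype. Adamts5 and Adamts18 were higher in batch 2 than in batch 1 by 0.52 and 0.53, while Col2a1, Col9a3 and Adamts15 had batch differences of -0.69, -0.88 and -0.59.

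Promoter peaks were set against the peaks elsewhere in the same gene. Of 54 tested promoter peaks 0 were called, against 6.09% of all promoter peaks, and of 17 elsewhere 1 was called (5.88%), against 11.9% of all such peaks, with median log2 fold changes of -0.0334 at promoters and 0.0175 elsewhere. Over all peaks the medians were 0.0313 at promoters and 0.0061 elsewhere. In 8 members with tested peaks of both kinds, the ratio of the rest of the gene to the promoter passed at 0 (limma, adjusted p under 0.05, against 0.271% of 1848 genes), with 3 at an unadjusted p under 0.05 (37.5%, against 12.4%). Beside Adamts5 these were Col6a5, a type VI chain, at 0.38 ± 0.15 (limma adjusted p = 0.315) and Col8a2 at 0.30 ± 0.14 (limma adjusted p = 0.399). In Col8a2 the 2 promoter peaks had log2 fold changes of 0.04 and 0.02 and the 5′ UTR peak had 0.34 ± 0.15.

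**Figure D5:**
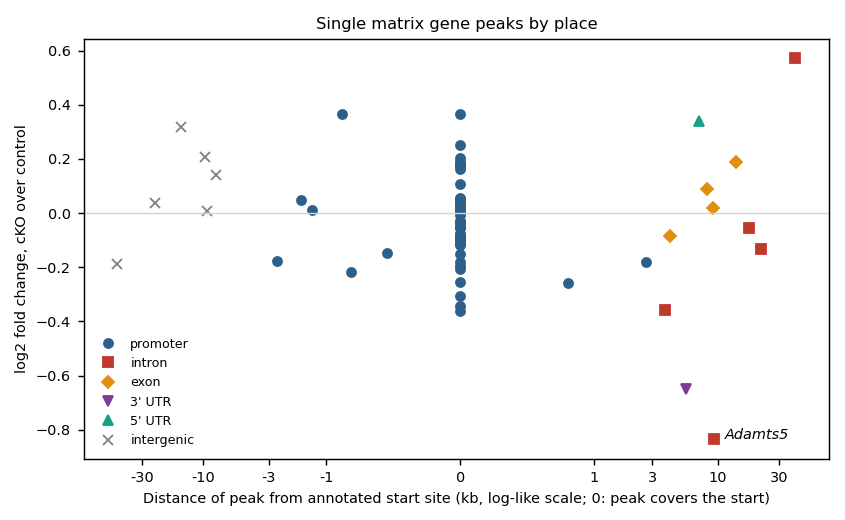
Log2 fold change, cKO over control, of the 71 tested matrix gene peaks against their distance from the annotated start site in kb on a log-like scale, with symbols by place in the gene. Most peaks cover the start and lie near 0, and the called peak is the intronic one of Adamts5 at -0.84.

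Genes that act on or beside these proteins were read from 6 lists. Of 10 tested genes that modify and crosslink collagen, such as Lox and P4ha3, 0 passed in either direction, and of 8 collagen and laminin receptors, such as the integrin chain Itga7, 0 passed. Of 9 basement membrane partners 2 were lower and 0 higher, of 14 other matrix genes 1 was lower and 0 higher, of 6 ADAMTS substrates 1 was lower and 0 higher, and of 8 inhibitors and other matrix proteases 0 were lower and 1 higher. These shares stand beside 8.29% lower and 1.48% higher over all genes.

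Reln, which encodes a secreted glycoprotein that positions neurons and is cut by Adamts3, changed most. It had 112, 109, 164, 155 and 168 CPM in cKO replicates, against 128, 284, 308, 324 and 291 CPM in control replicates. Control replicate 1 lay within the cKO range and the other controls far above it. Its log2 fold change of -0.91 ± 0.13 (SE), or 1.88-fold lower, had an adjusted p of 1.24e-04 in edgeR, and without control replicate 1 it was -1.05 (adjusted p = 4.53e-09). The other ADAMTS substrates tested, Acan, Vcan, Bcan, Ncan and Vwf, had log2 fold changes from -0.14 to 0.09.

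Fras1, a basement membrane protein mutated in Fraser syndrome, had 48.6, 53.6, 53.4, 56.9 and 57.7 CPM in cKO replicates, against 48.7, 84.3, 82.7, 83.2 and 85.2 CPM in control replicates (-0.50 ± 0.11, edgeR adjusted p = 0.00548). Control replicate 1 again lay with the cKO animals, and without it the log2 fold change was -0.62 (1.06e-05). Npnt, the integrin ligand nephronectin, had -0.28 ± 0.076 (edgeR adjusted p = 0.0216), and Matn3, a cartilage matrilin, had -0.31 ± 0.095 (0.0476). Both calls were lost with DESeq2 (adjusted p = 0.0706 and 0.183), without the batch term (0.0742 and 0.118) and in batch 2 alone (0.149 and 0.152). They were also lost when scaled by total counts (edgeR adjusted p = 0.0514 and 0.0946) and with the first duplicates alone (0.231 and 0.121). Several fits that left out 1 animal lost them too.

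Mmp2, a gelatinase that degrades type IV collagen, was the gene with more H3K27me3. It had 45.0, 46.8, 46.6, 39.1 and 40.7 CPM in cKO replicates, against 44.3, 40.9, 26.4, 22.7 and 22.9 CPM in control replicates. In batch 2 all cKO animals lay above all controls, while the batch 1 controls lay below the batch 1 cKO animals and within the whole cKO range. The difference on the log2 scale was 0.52 ± 0.12 (SE, adjusted p = 0.00854 by edgeR), 0.63 without control replicate 1 (8.52e-04) and 0.80 in batch 2 alone (2.96e-05). The calls of Mmp2 and Fras1 were lost without the batch term (adjusted p = 0.134 and 0.061), and that of Reln was not (0.0362).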

How the data were processed

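Of 22 libraries in the labels, the 16 for H3K27me3 were used, while 6 IgG libraries were left aside as not analysed here. A deposited table holds the authors' counts of reads per peak for 1 set of peaks, with the gene, place and start-site distance that the authors annotated. The build mm10 and the tools MACS2, SAMtools, DESeq2 1.38.1 and Novoalign 4.02.02 are named, with no role, per the submitters' processing notes. For the read counter and the peak settings nothing was stated in the sources used here.

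In batch 2 each animal had 2 technical duplicates, whose counts differed by no more than sampling noise, so they were summed. Chi-square over its degrees of freedom was 0.876 to 0.979, against 1.08 to 2.90 between animals of a group and batch. The lowest ratios lay below what independent sampling gives, and the reason was not tested. Counts were summed per gene, filtered with filterByExpr (prior count 2 for log values), scaled by TMM and tested with edgeR 4.0.16 (R 4.3.3), with batch as a term and Benjamini-Hochberg adjustment over all genes or peaks. The SE is the log2 fold change over the square root of F, which is approximate and slightly narrow at low counts. The ratio within genes used limma 3.58.1, and DESeq2 1.42.0 was an alternative. The steps were tested on simulated data. Python 3.11.15, pandas 2.3.3 and matplotlib 3.10.9 drew overlaps and figures. RefSeq genes and promoters came from GRCm38.p6.

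Genes were named where a gene sum or peak passed, and in each of 10 role classes for the smallest p and the highest CPM per kb. Others were named after their values were seen. Members, lists and tests were chosen with earlier results of these data known. Replicate numbers were not used as pairs in the main tests, and a block by replicate number is given with the alternatives. The other alternatives were other scalings, DESeq2, no filter, no batch term, sex as a term, batch 2 alone and the first duplicates. Fits with no intergenic peaks, with another prior count and promoter definition, and leaving out each animal were also run. P-values measure the spread between these animals, which in batch 2 were littermates. A member gene is counted in the totals but is not reported here by name.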

Additional observations from a re-analysis of the deposited data

Results flagged for a closer look

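Among 46 groups of 5 animals examined for an animal far from the others, 4 were found by Dixon's 95% critical value, at which chance flags about 1 in 20 groups. Control replicate 5 had 8.245 CPM at Adamts3, a procollagen N-proteinase, against 11.2 to 11.95 CPM in the other controls. The same animal had 156.7 CPM at Adamtsl3, an ADAMTS-like gene, against 209.9 to 217.8 CPM in the other controls. Control replicate 1, which carried Rx-cre, had 127.5 CPM at Reln, against 283.8 to 324 CPM in the other controls, and 48.68 CPM at Fras1, against 82.7 to 85.2 CPM in the other controls. What set these animals apart was not tested.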

How the results depend on the processing

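Counts of lower and higher genes and peaks were small, so single calls moved them. Scaling by total counts gave 1 gene and 1 peak higher, both Col1a1. DESeq2, no batch term and the first duplicates alone each gave 0 genes and 0 peaks lower. Batch 2 alone gave 0 genes and 0 peaks lower and 1 gene and 1 peak higher (Col13a1). No filter gave 2 genes lower (Adamts5, Adamts18), sex as a term 2 genes and 2 peaks lower, and the replicate block 2 genes lower (Adamts5, Lamb1). Within batches, cKO and control animals of the same replicate number had correlations of -0.444 to 0.0942. In batch 1, with 2 animals per group, both replicates must give the same value. In batch 2 the best match bore the same number for replicates 3 and 5, but not for replicate 4. These values do not decide whether the numbers pair animals. Leaving out 1 animal gave 1 to 5 genes and 1 to 5 peaks lower, with 5 of each without control replicate 5 (Adamts5, Adamts18, Col19a1, Col24a1 and Lamb1 as genes), and 0 to 1 gene and 0 to 1 peak higher. Over these fits 26 to 39 of the 52 to 55 members tested had a negative log2 fold change, with 26 under scaling by total counts and 34 as reported. Of the 17 genes followed one by one, signs turned at 3. Adamts2 had a log2 fold change of 0.0138 with the total count, 0.021 in batch 2 alone and -0.122 to 0.00425 in the fits that left out an animal (above 0 without control replicate 3). Adamts9 had 0.0783 in batch 2 alone. Col26a1 had 0.0574 with the total count, 0.00284 without the batch term, 0.00311 with the replicate block, 0.0628 with the first duplicates and -0.044 to 0.07 in the fits that left out an animal, above 0 in 4 of these. The tests between batches and within genes called 0 members under each alternative run. The cause of these changes was not tested. Depth limited the 11 untested peaks, and wide intervals stood at Adamtsl2, Col5a2 and Lama2.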
